A study of Mus musculus with 16 samples.

Results

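The genes described here encode the 4 subunits of negative elongation factor (NELF), Nelfa, Nelfb, Nelfcd and Nelfe, and both subunits of DRB sensitivity-inducing factor (DSIF), Supt4a and Supt5. They were picked by symbol as the known members of these complexes, and all 6 were present among the 9614 genes of the expression table. RNA-seq of polyA RNA was performed in bone-marrow-derived macrophages (BMDM) grown from 8-week-old male C57BL/6 mice, 3 per genotype, in 16 libraries. WT mice were LysM-Cre:NELF-B wt/wt and NELF-B KO mice were LysM-Cre:NELF-B fl/fl. Both genotypes thus carried LysM-Cre, and only the KO carried floxed Nelfb alleles. The number of LysM-Cre copies in each mouse was not given in the sources used here. LysM-Cre places Cre recombinase under the promoter of the lysozyme gene Lyz2, which is active in myeloid cells, and Nelfb is therefore deleted in cells that have expressed Cre and not in the germ line. BMDM were left untreated (U, 2 libraries per genotype), were treated for 1 hr with 10 ng/ml of the bacterial component LPS (L, 3 per genotype), or received LPS together with 100 nM of the synthetic glucocorticoid dexamethasone for 1 hr (LD, LPS + Dex, 3 per genotype). The mice of each genotype are called A, B and C, and mouse C of either genotype had no untreated library here. These letters are not printed in the labels and were set here. The data address whether the other subunits of the complex changed at the RNA level when Nelfb was deleted, and whether any subunit responded to LPS or Dex.

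NELF and DSIF together hold RNA polymerase II (Pol 2) in a paused state shortly after initiation. Phosphorylation by P-TEFb, the kinase Cdk9 with a cyclin T partner, releases NELF and turns DSIF into a factor that travels with the elongating polymerase. In macrophages this step is known for its part in the rapid induction of inflammatory genes, and the stability of the NELF complex depends on the presence of its subunits. The measurements below concern mRNA only, and protein levels were not analysed here.

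The floxed segment of Nelfb is exon 4, shown because it is the part of the message that Cre removes. In the GENCODE vM21 annotation of GRCm38 (mm10), Nelfb lies on the minus strand at chr2:25199712-25211489, and exon 4 of its 13-exon transcript Nelfb-201 spans chr2:25209854-25210084. The exon is written in capitals, 5′ to 3′ on the coding strand, between 15 bases of exon 3 and 15 bases of exon 5 in lower case.
Nelfb exon 4: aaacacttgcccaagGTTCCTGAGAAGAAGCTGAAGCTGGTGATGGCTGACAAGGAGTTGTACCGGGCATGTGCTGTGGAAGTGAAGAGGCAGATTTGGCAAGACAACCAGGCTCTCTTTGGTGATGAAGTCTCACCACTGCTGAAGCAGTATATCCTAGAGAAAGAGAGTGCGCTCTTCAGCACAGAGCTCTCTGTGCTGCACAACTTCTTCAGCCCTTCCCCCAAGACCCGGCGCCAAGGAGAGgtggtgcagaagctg
These 231 bases are all coding and hold codons 174 to 250, which is 77 whole codons, so that joining exon 3 to exon 5 would keep the reading frame in this annotation. Exon 4 makes up 8.76% of the 2637-base transcript. The table counts reads over all exons of a gene, and any Nelfb message without exon 4 is still counted over the remaining exons. The exon number is that of this annotation, and the numbering behind the floxed allele was not checked.

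The other members lie elsewhere in the genome. Nelfa is on chromosome 5 from 33897916 to 33936413 on the minus strand, and Nelfcd is on chromosome 2 from 174415804 to 174427502 on the plus strand. Nelfe is on chromosome 17 from 34850391 to 34856372 on the plus strand. Supt4a is on chromosome 11 from 87737552 to 87743623 on the plus strand, and Supt5 is on chromosome 7 from 28314891 to 28338746 on the minus strand. Nelfcd overlaps Ctsz, a cathepsin gene on the opposite strand with 10.10 to 12.09 log2 CPM, by 10 bases. Supt5 overlaps the antisense gene Gm44709 by 3976 bases and Nelfa overlaps Nsd2 by 60 bases, and neither of these is in the table. Whether reads were counted by strand is not stated, so reads from such overlaps cannot be assigned. Supt4a has a processed copy, Supt4b, on chromosome 10 that is identical at 348 of 351 aligned bases (99.1%), which makes the Supt4a counts uncertain where a read fits both.

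Values are log2 CPM, the log2 of read counts scaled to a common library size, as the authors deposited them. The libraries held 25030999 to 49730049 reads on these genes, and the members were covered by 280 to 9181 reads per library. At the median of 641.5 reads the counting error of Nelfa, the member with the lowest median, was 0.057 log2 units (SD), which is as large as its spread between WT mice with LPS (SD 0.057, n = 3) and larger than that between untreated mice. Macrophage markers had a summed level of 12.61 to 13.16 log2 CPM in every library, over 7 of the 8 listed markers (Adgre1 was not among the genes of the table). They were not equally high. Csf1r had 11.36 to 11.74 in the WT and 11.58 to 11.93 in the KO. Lyz2, the lowest of them, had 4.30 to 5.30 in the WT and 5.38 to 6.33 in the KO. Of markers of other cells, those of B cells, mast cells or basophils and erythroid cells were not among the genes of the table, and S100a8, Cd4 and Ccr7 were the only neutrophil, T cell and dendritic cell markers in it, at 2.45 to 5.38, 2.37 to 5.89 and -1.12 to 3.33. The fibroblast markers Col1a1, Col1a2, Col3a1 and Dcn summed to 5.62 to 7.18. Tnf rose with LPS in all 4 mice that had an untreated library (5.47 to 6.46 log2 CPM), and Tsc22d3, a gene activated by the glucocorticoid receptor, rose with Dex in all 6 mice (3.62 to 4.04), as their treatment labels say. The untreated library of WT mouse A stood apart, with r across genes of 0.83 to 0.909 with the other 15 libraries. In that library short transcripts read high and long transcripts read low when compared with the untreated library of WT mouse B. The median difference was 1.23 log2 CPM for the 513 genes with transcripts under 1000 bases and -0.76 for the 1807 genes of 5000 bases and over. The limma differences that use untreated WT cells are therefore given with and without this library, and the counts of genes whose groups do not overlap were made with it.

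**Figure D1:**
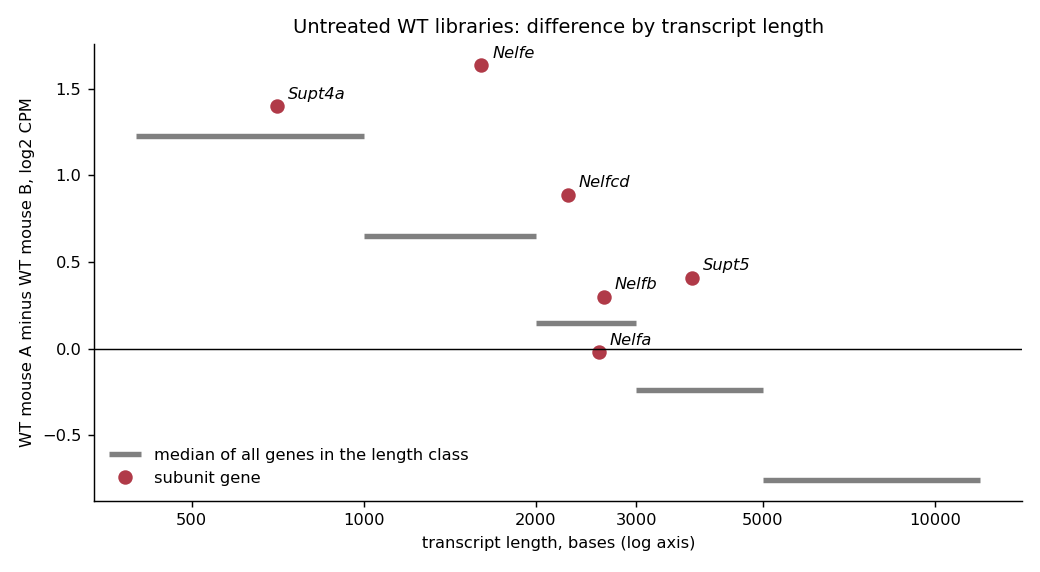
Difference in log2 CPM between the untreated libraries of WT mouse A and WT mouse B (vertical) by transcript length in bases (horizontal, log axis). Grey bars are medians of all genes in 5 length classes, the shortest and longest of which are open-ended, and red points are the 6 subunit genes. Supt4a (706 bases, 1.40), Nelfe (1607 bases, 1.64) and Nelfcd (2279 bases, 0.89) lie high, and Nelfa (2580 bases, -0.02) lies near 0. Nelfb (2637 bases, 0.30) and Supt5 (3755 bases, 0.41) lie less high. The class medians are 1.23 for Supt4a, 0.65 for Nelfe, 0.15 for Nelfcd, Nelfa and Nelfb, and -0.24 for Supt5.

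The members did not have equal mRNA levels. Per kb of transcript, the 3 WT libraries with LPS gave Supt5, the large DSIF subunit that contacts Pol 2 and the nascent RNA, the highest mean level, 48.2 CPM per kb ± 1.04 (SD, n = 3). Supt4a, the small zinc-finger DSIF subunit, followed with 42.9 ± 4.69. Among the NELF subunits, Nelfe, which carries the RNA recognition motif, had 20.1 ± 3.02 and Nelfb, a core subunit, had 19.3 ± 1.18, and these neighbours overlapped in their ranges. Nelfcd, the partner of Nelfa in the complex, had 11.9 ± 1.47, and Nelfa, the subunit that contacts Pol 2, had the lowest level, 7.73 ± 0.308. All other neighbours in this order were separated in the WT with LPS. With LPS + Dex the order in the WT was the same, but Supt5 and Supt4a then overlapped.

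In the KO, Nelfb moved from the fourth to the last place. Its level was 4.98 CPM per kb ± 1.804 with LPS and 5.05 ± 1.79 with LPS + Dex (SD, n = 3), and its range overlapped that of Nelfa, 7.05 ± 0.674 and 6.89 ± 0.743. The other NELF subunits kept their order in the KO, with Nelfe at 20.7 ± 1.95 and Nelfcd at 12.8 ± 1.03 with LPS. Supt4a and Supt5 overlapped at the top in all 3 treatments of the KO. These ranks compare genes within a group, and they carry the uncertainty of 1 transcript length per gene. For Supt4a they also carry that of reads which fit its processed copy Supt4b.

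**Figure D2:**
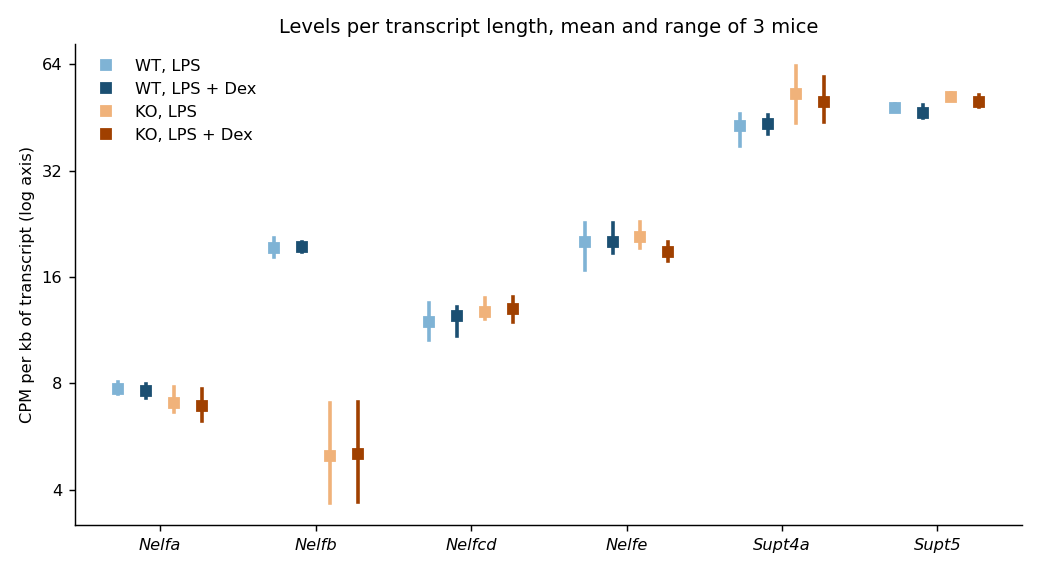
Level of each subunit mRNA in CPM per kb of transcript (log axis) for WT and KO BMDM with LPS or LPS + Dex, with the mean (square) and the range of 3 mice (line). Nelfb lies near Nelfe in the WT (19.3 with LPS) and overlaps Nelfa in the KO (4.98 with LPS), and the other NELF subunits keep their order.

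Nelfb was the member that differed most between the genotypes. Untreated WT libraries had 6.21 (mouse A) and 5.92 log2 CPM (mouse B), and untreated KO libraries had 3.53 and 4.38. With LPS the WT had 5.66, 5.76 and 5.59 in mice A, B and C, and the KO had 3.27, 4.21 and 3.48. With LPS + Dex the WT had 5.68, 5.73 and 5.64, and the KO had 3.28, 4.22 and 3.53. Every KO library was below every WT library, in each treatment and over all 16 libraries, and KO mouse B was the highest of the KO in each treatment.

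Set against the WT mouse of the same letter, KO mouse A had 15.6% to 19.1% of the WT level of Nelfb, KO mouse C had 23.2% to 23.3% and KO mouse B had 34.2% to 35.3%. The values of 1 mouse thus differed little between treatments, and the KO mice differed from each other more than their treatments did. In bulk RNA, a smaller share of cells with an intact Nelfb gene and a lower Nelfb level in every cell cannot be told apart. Any Nelfb message without the floxed exon is also counted in these values, so the percentages are not levels of intact message. The share of such message in the KO was not tested.

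By limma, the Nelfb difference was -2.11 ± 0.379 (SE) log2 CPM untreated, -2.02 ± 0.232 with LPS and -2.003 ± 0.227 with LPS + Dex. Without the untreated library of WT mouse A the untreated difference was -1.96. The 95% intervals of Nelfb with all libraries were -3.08 to -1.14, -2.56 to -1.47 and -2.54 to -1.47. The adjusted p of limma over all 9614 genes was 0.889, 0.105 and 0.089, so that Nelfb did not pass 0.05 in any treatment without a block, where 0 genes were called (0.0%) in each. The unadjusted p of limma was 0.00242, 4.36e-05 and 4.84e-05. The mouse letter, which pairs a WT with a KO mouse, was set here from the labels, with letter A by elimination. With it as a block, Nelfb passed in the fits of all 3 treatments, with a limma adjusted p of 0.00322, 0.043 and 0.0328. In those fits 3, 12 and 59 genes were called (0.0312%, 0.125% and 0.614% of all genes), and Nelfb was the only member among them. For untreated cells this call rests on a fit with 4 libraries, and with a correction for transcript length and the same block its adjusted p was 0.536. When 1 library was left out without a block, Nelfb passed in these 2 treatments only without KO mouse B or without WT mouse B. Without KO mouse B the limma adjusted p was 0.00885 with LPS and 0.00892 with LPS + Dex, where 0.0104% and 0.0208% of genes were called. KO mouse B had the most Nelfb of the KO, so leaving it out sharpens the difference tested and gives no further support. Without WT mouse B, 95 and 146 genes were called. Over the mean of L and LD per mouse, the exact permutation test of 3 WT against 3 KO mice gave p = 0.1 (two-sided), the smallest that this design allows.

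**Figure D3:**
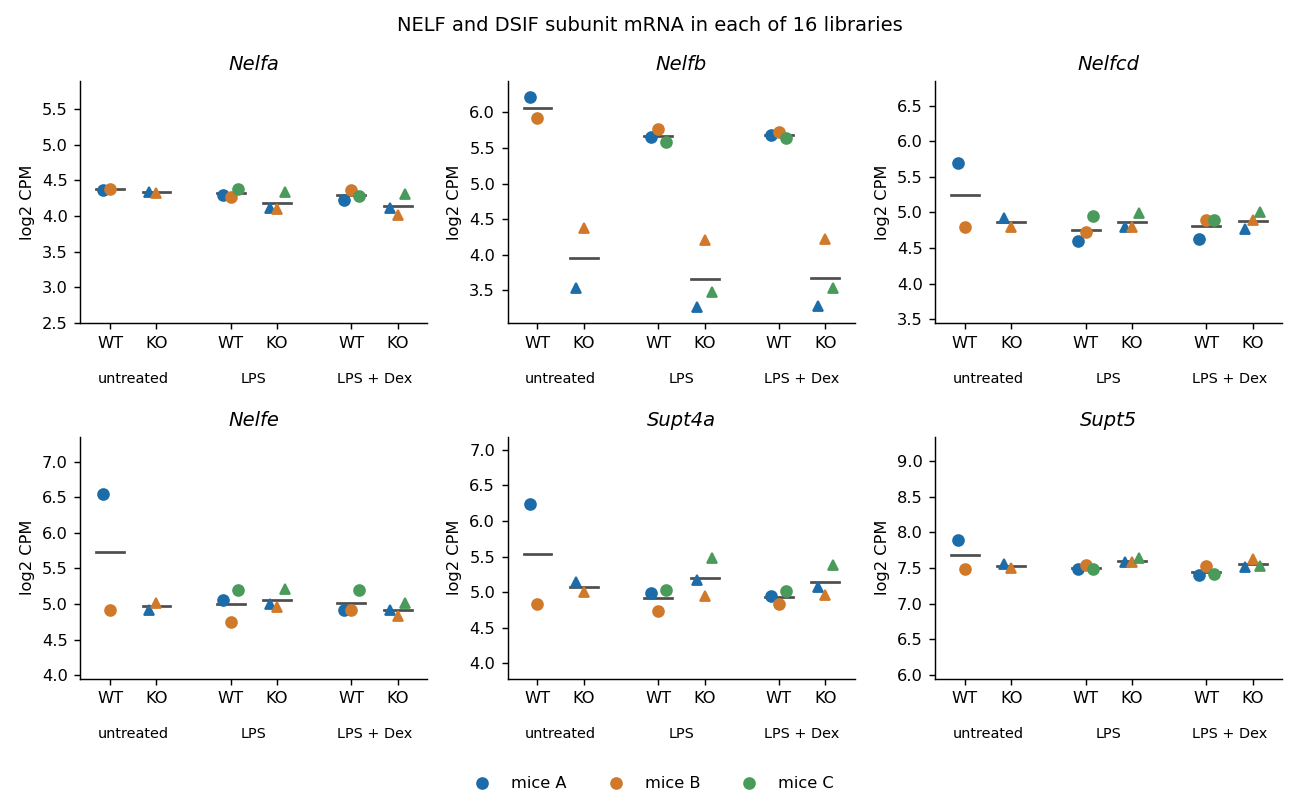
The log2 CPM of each subunit gene in all 16 libraries by treatment and genotype, with circles for WT, triangles for KO, colours for the mouse letter and a bar for the group mean. All panels span the same number of log2 units. Nelfb separates the genotypes, and WT mouse A without treatment is high for Nelfcd (5.69), Nelfe (6.55), Supt4a (6.24) and Supt5 (7.89).

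The remaining NELF subunits differed far less between the genotypes than Nelfb. With LPS, in the order of mice A, B and C used from here on, Nelfa had 4.30, 4.27 and 4.38 log2 CPM in the WT and 4.11, 4.10 and 4.33 in the KO. With LPS + Dex it had 4.23, 4.36 and 4.28 in the WT and 4.11, 4.01 and 4.31 in the KO. The genotypes overlapped in both treatments, with KO mice A and B below the WT and KO mouse C within it. The limma difference was -0.14 ± 0.109 (SE) with LPS (95% interval -0.39 to 0.12, adjusted p = 0.881) and -0.14 ± 0.109 with LPS + Dex (-0.40 to 0.11, adjusted p = 0.700). Untreated cells had 4.37 and 4.38 in the WT and 4.34 and 4.32 in the KO. These do not overlap, but the difference of -0.05 (limma interval -0.71 to 0.61) is no larger than the counting error of 1 library, and it was -0.06 without the untreated library of WT mouse A.

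Nelfcd, which is made as the Nelf-c and Nelf-d forms from the same gene, had 4.60, 4.73 and 4.95 log2 CPM in the WT with LPS and 4.80, 4.79 and 4.99 in the KO. With LPS + Dex the WT had 4.63, 4.90 and 4.90 and the KO had 4.77, 4.89 and 5.00. The groups overlapped in both treatments. The limma difference was 0.10 ± 0.123 (SE) with LPS (95% interval -0.19 to 0.39) and 0.07 ± 0.112 with LPS + Dex (-0.19 to 0.34), with adjusted p of 0.946 and 0.861. In untreated cells the WT had 5.69 and 4.80 and the KO had 4.92 and 4.80. The limma difference of -0.39 (-1.35 to 0.58) became 0.06 without the untreated library of WT mouse A.

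Nelfe had 5.05, 4.75 and 5.19 log2 CPM in the WT with LPS and 5.00, 4.96 and 5.21 in the KO. With LPS + Dex it had 4.91, 4.92 and 5.20 in the WT and 4.92, 4.83 and 5.01 in the KO. Mouse C was the highest of each group, and the genotypes overlapped. The limma difference was 0.06 ± 0.139 (SE) with LPS (95% interval -0.27 to 0.38) and -0.09 ± 0.109 with LPS + Dex (-0.35 to 0.17), with adjusted p of 0.985 and 0.826. The untreated WT libraries were 1.64 log2 units apart, with 6.55 in mouse A and 4.91 in mouse B, and the untreated KO libraries had 4.91 and 5.02. The untreated difference was -0.77 (-2.22 to 0.69) with all libraries and 0.05 without that of WT mouse A. When it was instead the WT mouse B library that was left out, Nelfcd, Nelfe, Supt4a and Nelfb were all called lower in untreated KO cells, as were 2026 genes in all, with 4203 genes (43.7%) called in either direction.

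Both DSIF subunits were slightly higher in the KO with LPS and with LPS + Dex in each mouse letter, but neither passed the test. Supt5 had 7.48, 7.54 and 7.49 log2 CPM in the WT with LPS and 7.59, 7.58 and 7.64 in the KO, with no overlap. With LPS + Dex it had 7.40, 7.53 and 7.42 in the WT and 7.51, 7.62 and 7.53 in the KO, where the ranges overlapped. The limma difference was 0.11 ± 0.083 (SE) with LPS (95% interval -0.09 to 0.30, adjusted p = 0.876) and 0.10 ± 0.083 with LPS + Dex (-0.10 to 0.30, adjusted p = 0.725). In untreated cells Supt5 had 7.89 and 7.48 in the WT and 7.55 and 7.50 in the KO, and the difference went from -0.16 (-0.88 to 0.56) with all libraries to 0.04 without the untreated library of WT mouse A. The KO mean of Supt5 was 108% of the WT mean with LPS and 107% with LPS + Dex. Over the mean of both treatments the KO mice had 7.55, 7.60 and 7.58 and the WT mice 7.44, 7.53 and 7.46, and the exact permutation test gave p = 0.1 (two-sided), the smallest possible.

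Supt4a had 4.99, 4.73 and 5.03 log2 CPM in the WT with LPS and 5.17, 4.94 and 5.48 in the KO. With LPS + Dex it had 4.95, 4.84 and 5.02 in the WT and 5.07, 4.96 and 5.38 in the KO. Mouse B was the lowest and mouse C the highest of the WT and of the KO, and the ranges overlapped. The limma difference was 0.28 ± 0.159 (SE) with LPS (95% interval -0.09 to 0.66, adjusted p = 0.770) and 0.20 ± 0.127 with LPS + Dex (-0.10 to 0.50, adjusted p = 0.639). With the mouse letter as a block the interval with LPS was 0.07 to 0.49 and the limma adjusted p was 0.177. In untreated cells the WT had 6.24 and 4.84 and the KO 5.15 and 5.00, and the difference went from -0.47 with all libraries to 0.23 without the untreated library of WT mouse A.

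**Figure D4:**
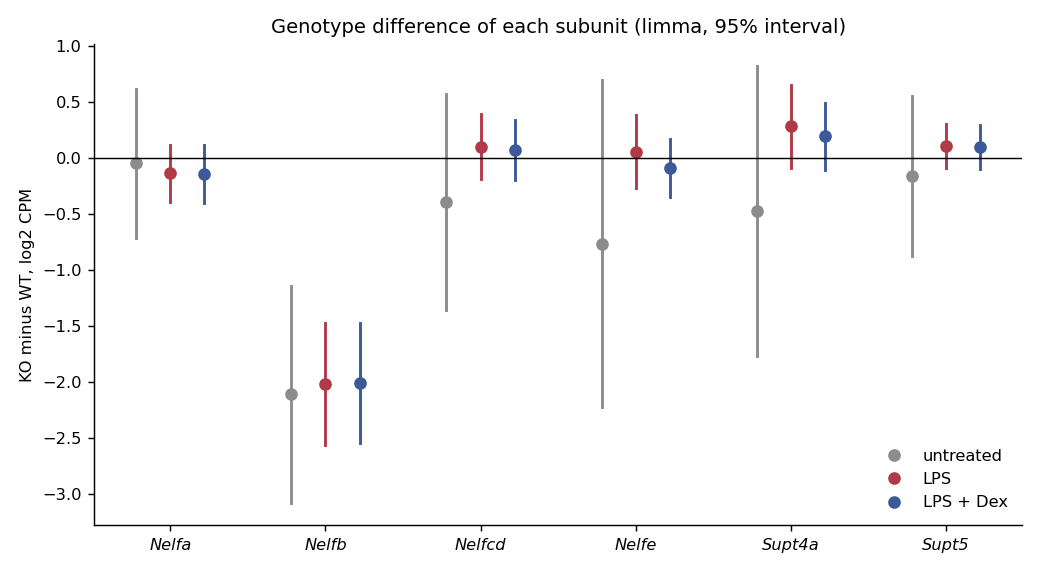
KO minus WT difference in log2 CPM of each subunit gene (points) with the 95% limma interval (lines), for untreated, LPS and LPS + Dex libraries, with 2, 3 and 3 libraries per genotype. Only the Nelfb intervals lie away from 0, and the untreated intervals of the other members are the widest.

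By count, 2 of the 6 members did not overlap between the genotypes in untreated cells (Nelfa and Nelfb, both lower in the KO), against 29.4% of all genes in either direction and 13.8% in that direction. With LPS, 2 of 6 did not overlap, Nelfb lower and Supt5 higher, against 7.82% of genes lower and 5.91% higher. With LPS + Dex, 1 of 6, Nelfb, did not overlap, against 8.83% of genes lower. Within letters, 3 members (Nelfcd, Supt4a and Supt5) were higher in the KO in all 3 letters with LPS, where 21.5% of genes were. With LPS + Dex, Supt4a and Supt5 were, where 26.3% of genes were. Such small and concordant differences were thus frequent among all genes. A difference that misses the threshold does not show equal levels, and the intervals with LPS leave room for changes of the other members of up to 0.66 log2 units (Supt4a) upward and 0.39 (Nelfa) downward.

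LPS was then compared with untreated cells within each genotype. In the WT, 0 of 6 members were called by limma, where 2.63% of genes were, and 0 of 6 with the mouse as a block, where 3.34% were. Nelfb changed by -0.55 log2 CPM in WT mouse A and by -0.15 in WT mouse B. In KO mice A and B the residual Nelfb signal changed by -0.25 and -0.17. Nelfb was thus lower with LPS in all 4 mice with an untreated library, with a mean change of -0.28 ± 0.183 (SD, n = 4). By value Nelfa and Nelfcd were lower in all 4 mice as well. The Nelfcd change in KO mouse B was -0.01, which is within its counting error of 0.046 and has no sign. The Nelfa change in WT mouse A was -0.06, near its counting error of 0.057. By value alone, these 3 of 6 members compare with 18.7% of all genes that were lower in all 4 mice. The exact sign-flip permutation test over 4 mice gave p = 0.125 (two-sided) for each of these 3 genes, the smallest possible with 4 mice.

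The limma change of Nelfb with LPS in the WT was -0.39 ± 0.146 (SE, 95% interval -0.73 to -0.05), with an unadjusted p of 0.0286 and an adjusted p of 0.320. Without the untreated library of WT mouse A the change was -0.24 (-0.52 to 0.03) and its adjusted p was 0.650. In the KO the change was -0.30 ± 0.385, and with the mouse as a block, which removes the large differences between KO mice, it was -0.22 ± 0.072 (-0.38 to -0.06), with a limma adjusted p of 0.0525.

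Nelfa changed by -0.06 and -0.12 log2 CPM with LPS in WT mice A and B and by -0.23 and -0.22 in KO mice A and B. In the KO its limma change was -0.15 ± 0.120 (SE, adjusted p = 0.819) without a block and -0.23 ± 0.064 with the mouse as a block (95% interval -0.37 to -0.09, adjusted p = 0.0266). With that block Nelfa was the only 1 of 6 members called in the KO, while 24.7% of all genes were called, against 5.59% without it. In the WT the change of Nelfa was -0.06 (-0.37 to 0.26), and -0.07 without the untreated library of WT mouse A. The difference between the genotypes in the LPS change of Nelfa was -0.09 ± 0.189 by limma, with an adjusted p of 0.877, and -0.08 without that library.

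For Nelfcd, Nelfe and Supt4a the LPS change in the WT rested on the untreated library of WT mouse A. In that mouse they changed by -1.09, -1.49 and -1.25 log2 CPM. In WT mouse B they changed by -0.08, -0.16 and -0.12, and in the KO mice by between -0.12 (Nelfcd, mouse A) and 0.09 (Nelfe, mouse A). Supt5 changed by -0.41 in WT mouse A and by 0.05, 0.04 and 0.08 in WT mouse B and KO mice A and B. The limma changes in the WT were -0.49 (Nelfcd), -0.73 (Nelfe), -0.63 (Supt4a) and -0.18 (Supt5), and became -0.05, 0.09, 0.07 and 0.02 without the untreated library of WT mouse A. With the WT mouse B library left out instead, these 4 members and Nelfb were called lower with LPS (5 of 6, where 47.4% of genes were called). In a fit of all 16 libraries with the mouse as a block, Nelfe alone of the members was called in the WT, with a change of -0.79 and an adjusted p of 0.0464, where 25.2% of genes were called. In the KO, where the untreated libraries did not stand apart, the unblocked changes were 0.00 (Nelfcd), 0.09 (Nelfe), 0.12 (Supt4a) and 0.08 (Supt5), with the widest interval for Supt4a (-0.29 to 0.54).

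Dex added to LPS left the members near their LPS levels. In the WT and in the KO, 0 of 6 were called by limma, where 0.187% and 1.49% of genes were called, and with the mouse as a block 0 of 6 were called where 0.281% and 10.8% of genes were. The Dex changes of all members in all 6 mice lay between -0.19 (Nelfe, KO mouse C) and 0.17 log2 CPM (Nelfcd and Nelfe, WT mouse B). No member changed in the same direction in all 6 mice, as 19.6% of genes did. Nelfb had the smallest changes, with a mean of 0.02 ± 0.033 (SD, n = 6) and values from -0.04 to 0.05. Supt5 was lower in 5 of 6 mice, with a mean of -0.05 ± 0.056, and the exact sign-flip permutation test gave p = 0.0938 (two-sided), the lowest of the 6 members, where 0.0312 is the smallest possible. With the mouse as a block, Nelfe in the KO changed by -0.13 (95% interval -0.25 to -0.01), with an unadjusted p of 0.0326 and a limma adjusted p of 0.173.

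**Figure D5:**
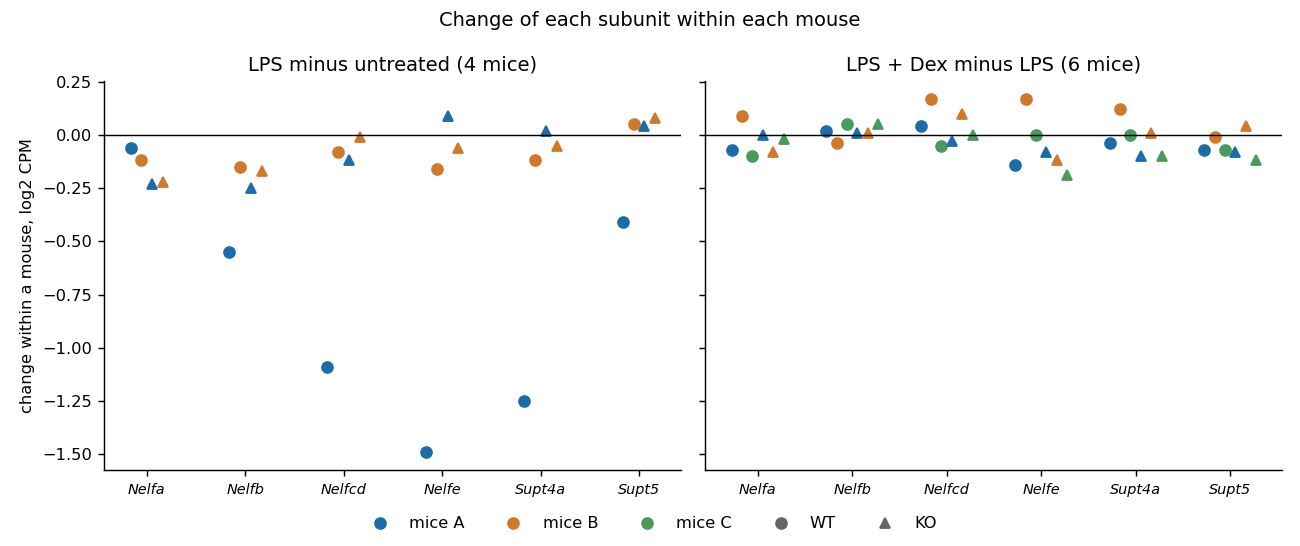
Change in log2 CPM of each subunit gene within each mouse from untreated to LPS (left, 4 mice) and from LPS to LPS + Dex (right, 6 mice), with circles for WT, triangles for KO and colours for the mouse letter. The LPS changes below -0.40 are all from WT mouse A, and all Dex changes lie within -0.19 to 0.17.

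The LPS change and the Dex change of the members were also compared between the genotypes. For LPS, 0 of 6 members were called (0.0% of genes), and the limma differences, KO minus WT, ranged from -0.09 (Nelfa) to 0.82 (Nelfe, 95% interval -0.42 to 2.06). Without the untreated library of WT mouse A they ranged from -0.08 (Nelfa) to 0.06 (Supt5), and without that of WT mouse B 4 members were called (Nelfcd, Nelfe, Supt4a and Supt5), where 32.9% of genes were. For Dex, 0 of 6 members were called (0.0%), with differences between -0.14 (Nelfe) and 0.01 (Nelfb). With the mouse as a block the Dex intervals narrowed to at most -0.32 to 0.03 (Nelfe).

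Other genes were then ranked by how closely they followed each member over the 16 libraries, as a description. The genes with the highest Pearson r with Nelfb were Pcif1 (0.96), Col18a1 (0.95), Ahcy (0.94), Chaf1a (0.94) and Smc1a (0.94). Pcif1, which encodes a cap-specific adenosine methyltransferase, had 5.18 to 5.62 log2 CPM in the WT and 4.68 to 4.97 in the KO. The genes that ran most opposite to Nelfb were Gm11613 (-0.96), Dhdh (-0.96), Ctso (-0.95), Slc18a1 (-0.94) and Gtf2h3 (-0.93). Gtf2h3, a subunit of the initiation factor TFIIH, had 2.98 to 3.29 in the WT and 3.50 to 3.83 in the KO. Every one of these 10 genes had no overlap between the 8 WT and the 8 KO libraries, so that these correlations follow the genotype and share the libraries of the same 6 mice. The genes were picked by their r with Nelfb, which itself separates the genotypes, so their lack of overlap is no further result. The share of all genes without such overlap was not counted.

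The members did not follow Nelfb in this way. Over 16 libraries, r with Nelfb was 0.48 for Nelfa, 0.32 for Nelfe, 0.14 for Nelfcd and -0.06 for Supt4a and Supt5. Without the untreated library of WT mouse A it was 0.43 (Nelfa), -0.05 (Nelfe), -0.38 (Nelfcd), -0.72 (Supt4a) and -0.64 (Supt5). Nelfcd, Nelfe, Supt4a and Supt5 were correlated with each other at r of 0.76 to 0.90 over 16 libraries and at -0.11 to 0.57 over the other 15. The genes closest to Nelfe were Ndufa5, Snrpd2 and Atpif1 (r = 0.99, and 0.85 to 0.94 without that library). Those closest to Supt4a were Guk1, Mrpl24 and Macrod1 (0.98 to 0.99, and 0.95 to 0.96 without it). Nelfa, the member for which that library differed least from the other untreated WT library, was closest to Poldip2 (0.83), Tmem55b (0.82) and Zfyve21 (0.80). For Nelfcd the closest genes were Marc2 (0.97), Nt5c (0.96) and Tomm22 (0.96), and for Supt5 they were Rtfdc1 (0.96), Apoc2 (0.94) and Irf3 (0.93).

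A list of 28 further genes of pause release and early elongation held the P-TEFb kinase and its inhibitors, the super elongation complex, the cap-binding complex and the PAF complex. All 28 were tested, and in the KO against the WT 0 of 28 were called in any treatment, where 0.0% of all genes were, so that this count says nothing about the list. With the mouse letter as a block it was also 0 of 28 in each, where 0.0312%, 0.125% and 0.614% of genes were called. With LPS their median difference was -0.01 log2 CPM, beside 0.00 over all genes, and their range was -0.30 (Larp7, which holds the 7SK RNA) to 0.17 (Ncbp2, of the cap-binding complex). With LPS + Dex the median was 0.01, beside 0.01 over all genes, and the range was -0.30 (Mllt3, of the super elongation complex) to 0.26 (Ccnt2, a P-TEFb cyclin). The Nelfb difference in the same comparison was -2.003. With LPS in the WT 1 of 28 was called, Ell2, an elongation factor, which rose by 0.99 ± 0.199 (SE) with a limma adjusted p of 0.0471, where 2.63% of all genes were called. Without the untreated library of WT mouse A its change was 0.66 ± 0.104 (adjusted p = 0.0309, with 2.25% of genes called), and with the mouse as a block it was 0.99 ± 0.187 and missed the threshold (adjusted p = 0.0734). In the KO Ell2 changed by 0.59 ± 0.231 with LPS (adjusted p = 0.288, with 0 of 28 and 5.59% of all genes called).

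With the mouse as a block, 7 of the 28 were called higher and 3 lower with LPS in the KO, where 24.7% of all genes were called. Ell2 rose by 0.77 ± 0.051 (SE), Aff4, a scaffold of the super elongation complex, by 0.43 ± 0.046, Ccnt1, a P-TEFb cyclin, by 0.41 ± 0.049 and Paf1, of the PAF complex, by 0.39 ± 0.062, each by limma. The genes called lower were Mepce (-0.30), the capping enzyme of the 7SK RNA, Trim28 (-0.18) and Rtf1 (-0.16). Dex was followed by 0 of 28 calls without a block, where 0.187% of genes were called in the WT and 1.49% in the KO. With the block it was 0 of 28 in the WT (0.281% of genes), and in the KO 1 was higher and 3 were lower (10.8% of genes). These were Aff1 (0.30 ± 0.057) and Hexim1 (-0.26 ± 0.044), Ell2 (-0.19 ± 0.044) and Cdk9 (-0.17 ± 0.034), the last of them the P-TEFb kinase.

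The genes around Nelfb were compared between the genotypes as well. Of the genes annotated within 100 kb of Nelfb, 7 were tested (Tor4a, Tubb4b, Ndor1, Tmem203, Tprn, Ssna1 and Anapc2), and 0 of 7 were called in any treatment, with the mouse letter as a block or without it. Without the block 0.0% of genes were called and Nelfb itself was not, so that this count says nothing about the region. Their median KO minus WT difference was -0.18 log2 CPM untreated, beside 0.02 over all genes, and -0.09 without the untreated library of WT mouse A. It was 0.02 with LPS and -0.04 with LPS + Dex, beside 0.00 and 0.01 over all genes. In untreated cells the lowest were Tubb4b (-0.82) and Ssna1 (-0.77), which had -0.42 and 0.08 without that library. With LPS and LPS + Dex the lowest was Tubb4b, a beta-tubulin gene, with -0.56 ± 0.214 (SE, limma adjusted p = 0.516) and -0.64 ± 0.200 (adjusted p = 0.284). Tubb4b was lower in the KO in every letter and treatment, from -1.46 (letter A, untreated) to -0.10 (letter B, LPS). In letter B it differed by -0.18 untreated, -0.10 with LPS and -0.17 with LPS + Dex. A relation of Tubb4b to the Nelfb level was not tested.

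Some markers moved with the genotype beside Nelfb. Lyz2, the locus that holds LysM-Cre, had 4.30 to 5.30 log2 CPM in the 8 WT libraries and 5.38 to 6.33 in the 8 KO libraries, without overlap. The part of the LysM-Cre allele and of its copy number, which is not known here, in the Lyz2 values was not tested. The cell-division genes Top2a and Ccnb1 also did not overlap, with 6.22 to 7.13 and 3.82 to 4.75 in the WT and 5.43 to 5.93 and 2.98 to 3.48 in the KO, while Mki67 did overlap. The share of all genes without such overlap over the 16 libraries was not counted, so these genes cannot be called unusual. Between the genotypes Top2a differed least in letter B, by -0.34 with LPS, against -1.28 in letter A and -1.69 in letter C. With LPS, WT mouse B had 6.28, below 7.03 in WT mouse A and 7.13 in WT mouse C. KO mice A, B and C had 5.75, 5.93 and 5.43. None of these markers was called by limma between the genotypes without a block, where 0.0% of genes were called in each treatment. The part of these markers in the small differences of the other subunits was not tested.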

How the data were processed

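RNA-seq of BMDM was analysed in 16 libraries of 6 mice. Per the study's methods, the authors aligned 50-base read pairs to mm10 in CLC Bio Genomic Workbench. Unique reads in exons were tallied per gene, scaled in edgeR by a weighted trimmed mean and deposited by the authors as log2 CPM. The submitters' processing notes also name CASAVA 1.8 and FastQC. The filter behind the 9614 genes and the use of strand were not given in the sources used here. The p-value and FDR columns that the authors deposited for their own comparisons were not used.

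A count model did not suit log values, and comparisons were therefore fitted with lmFit and eBayes (variance trend) in limma 3.58.1 under R 4.3.3 on all 9614 genes, with Benjamini-Hochberg adjustment over all of them and calls at an adjusted p under 0.05. No pseudocount or further filter was used. KO against WT used the libraries of the treatment compared, and LPS and Dex changes used the 8 libraries of a genotype. Exact two-sided tests and other values were computed in Python 3.11.15 with numpy 2.4.6, pandas 2.3.3 and scipy 1.17.1, and the plots were drawn with matplotlib 3.10.9. The exact tests numbered 12 over mice and 6 between genotypes, and their p-values are unadjusted. Plain fits of KO against WT were also run on simulated independent libraries. These held no shared mice, no block and no length bias, so they do not bear on those features of the data.

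Whole reads were recovered from the steps in the low values. In each library 100.0% of the values below 3 CPM were whole to within 0.1 of a read, which gave 25030999 to 49730049 reads per library. A count of 3 reads is 0.0653 to 0.136 CPM and covers counting error only. Intervals are 95%.

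Groups and mouse numbers came from the labels. Deviations from the group mean were correlated across genes for libraries from 1 mouse (r of 0.19 to 0.94 over 10 pairs). They were also correlated for WT and KO libraries that share a letter (0.35 to 0.76 over 8 pairs). Each untreated group holds 2 libraries, so letters A and B give the same r there (0.35). Values for unlike letters are not given, so this range does not test the pairing. The mice of letter B share a printed string and those of letter C share the form of their sample numbers on at least 1 library each, while those of letter A are the remaining mice. P-values of KO against WT without a block, within 1 treatment or on the mean per mouse, measure the spread between these mice. The unblocked LPS and Dex fits, the unblocked tests of genotype differences in these changes and the unblocked fit of 16 libraries count libraries of 1 mouse as separate. Fits with a block measure the spread left within a mouse or letter. The sign-flip tests use the changes within mice.

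Positions, transcript lengths (1 main transcript per gene, found for 9211 genes, 95.8%) and the exon sequence are from GENCODE vM21 on GRCm38, the assembly that mm10 names. The named genes were the members, the 28 genes of the pathway list (the largest changes or calls by name), the genes most like each member by Pearson r (5 each way for Nelfb and 3 for the others), those within 100 kb of Nelfb, Lyz2, Tnf and Tsc22d3. Members and lists were chosen with earlier results of these data known. Alternatives were a replicate block (the letter between genotypes, the mouse within them), a fit of all 16 libraries, WT mice A and B only, centring on the median gene, log2(CPM + 1), a filter on mean log2 CPM above 1, voom in limma on the recovered reads, other thresholds and leaving out each library. A loess correction for transcript length and a fit of 15 libraries without the untreated library of WT mouse A were chosen after seeing the data.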

Additional observations from a re-analysis of the deposited data

Results flagged for a closer look

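The mean KO minus WT difference of Nelfcd was 0.49 log2 CPM higher with LPS than in untreated cells. In the untreated libraries it was -0.77 in letter A and 0 to 2 decimals in letter B, which is within counting error and has no sign, and with LPS it was 0.20, 0.06 and 0.04 in the 3 letters. The negative mean thus rests on the untreated library of WT mouse A. The test of this difference in limma, an interaction of genotype and LPS, gave 0.49 ± 0.341 (SE) with an adjusted p of 0.823, and 0.05 with an adjusted p of 1.00 without that library. With 2 or 3 libraries, no group was large enough for a check of single libraries that lie far from the rest of their group.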

How the results depend on the processing

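The main limits are the small groups and the untreated library of WT mouse A. Nelfb kept its direction between the genotypes under every alternative run, from -1.68 to -2.54 (untreated), -1.82 to -2.30 (LPS) and -1.80 to -2.27 log2 CPM (LPS + Dex) when 1 library was left out, and only its call changed. In the comparisons of KO with WT, where 0 members were called, the number was 1 (Nelfb) in untreated, LPS and LPS + Dex cells with the replicate block, with the fit of 16 libraries and that block, and at an unadjusted p under 0.05, and it was also 1 for the mean per mouse with the block or the unadjusted p. It was 1 with LPS and with LPS + Dex in the unblocked fit of 16 libraries, 1 in those treatments and for the mean with the length correction and the block, 1 in untreated cells in the fit of 15 libraries, and 1 with LPS + Dex at an adjusted p under 0.1. For LPS in the WT it was 1 in the blocked fit of 16 libraries (Nelfe) and 1 at the unadjusted p (Nelfb), and for LPS in the KO 1 (Nelfa) with the block, without or with the length correction. Leaving out 1 library gave 0 to 4 members in untreated KO against WT, 0 to 1 with LPS, LPS + Dex and the mean, 0 to 5 for LPS in the WT and 0 to 4 for the genotype difference in the LPS change. In these fits a group left with 1 library is assumed to vary like the others. The pairing by replicate block changed no other call of a member, and for the genotypes it rests on letters of which A was set by elimination. Of the 795 alternatives run for the 5 members other than Nelfb, 14 passed the threshold, all of them in comparisons that use untreated libraries.

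Over all genes, the block moved the number called from 0 to 3, 12 and 59 between the genotypes (untreated, LPS and LPS + Dex), from 537 to 2372 (LPS in the KO) and from 143 to 1043 (Dex in the KO). For LPS in the WT 253 genes were called, 95 with mice A and B only, 664 in the fit of 16 libraries, 2420 with its block, and 216 or 4560 without the untreated library of WT mouse A or B.

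Several differences reversed sign. Untreated KO minus WT became 0.028 (Nelfa), 0.14 (Nelfcd), 0.221 (Supt4a) and 0.099 (Supt5) in the fit of 15 libraries, and 0.049 (Supt4a) with the length correction, without or with the block. In the fit of 15 libraries the LPS change of Supt5 in the WT became 0.071, and the genotype difference in the LPS change became -0.044 (Nelfb) and -0.038 (Nelfcd). The Dex change in WT mice A and B only became 0.010 (Nelfa) and -0.009 (Nelfb). The LPS change of Supt4a in the KO became -0.008 with the block, and the genotype difference in the Dex change of Nelfa became 0.001 with the length correction, without or with the block.

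Without 1 library, untreated KO minus WT ranged from -0.834 to 0.056 (Nelfcd), -1.583 to 0.053 (Nelfe), -1.168 to 0.228 (Supt4a) and -0.366 to 0.044 (Supt5). For Nelfe it ranged from -0.068 to 0.151 with LPS, -0.138 to 0.005 with LPS + Dex and -0.100 to 0.078 for the mean, and for Nelfcd with LPS + Dex from -0.014 to 0.134. The LPS change in the WT ranged from -1.549 to 0.087 (Nelfe), -1.325 to 0.071 (Supt4a) and -0.390 to 0.020 (Supt5), that in the KO from -0.727 to 0.127 (Nelfb) and -0.019 to 0.251 (Supt4a), and the mean LPS change of Supt5 over mice from -0.105 to 0.060. The Dex change in the WT ranged from -0.064 to 0.004 (Nelfa), -0.031 to 0.056 (Nelfb), -0.027 to 0.147 (Nelfcd), -0.113 to 0.106 (Nelfe) and -0.070 to 0.079 (Supt4a). In the KO it ranged from -0.119 to 0.043 (Nelfa), -0.248 to 0.303 (Nelfb), -0.030 to 0.091 (Nelfcd) and -0.190 to 0.081 (Supt4a). The genotype difference ranged from -0.335 to 0.519 in the LPS change of Nelfb, and in the Dex change from -0.091 to 0.071 (Nelfa), -0.258 to 0.292 (Nelfb), -0.122 to 0.052 (Nelfcd), -0.213 to 0.058 (Supt4a) and -0.039 to 0.034 (Supt5). The causes of these reversals were not tested.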

Other observations

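Further genes of the pathway list had changes with LPS in the WT that did not pass the limma threshold, with or without the mouse as a block. After Ell2 they were largest for Aff4 (0.83 ± 0.340 SE log2 CPM, adjusted p = 0.352) and Ccnt1 (0.81 ± 0.273, adjusted p = 0.276). Without the untreated library of WT mouse A these changes were 0.24 ± 0.241 and 0.30 ± 0.138. With Dex in the WT Hexim1, the P-TEFb inhibitor, changed by -0.20 ± 0.235. The difference between the genotypes in the LPS change was largest for Paf1 (0.77 ± 0.536) and Ccnt1 (-0.55 ± 0.396), each with an adjusted p of 0.823, and without that library it was -0.04 ± 0.202 and -0.05 ± 0.265.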
